A study of Mus musculus with 4 samples.

Results

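A set of 10 genes of the core machinery that takes cells from G1 into S phase and on to mitosis was followed: the phosphatases Cdc25a, Cdc25b and Cdc25c, the kinase inhibitors Cdkn1a (p21) and Cdkn1b (p27), the D-type cyclins Ccnd1, Ccnd2 and Ccnd3, and the E-type cyclins Ccne1 and Ccne2. They were chosen by symbol from the authors' table of 49548 genes; all 10 were found once each, and all 10 were among the 13290 genes that entered the test, for which the mean of the 4 libraries had to reach 10 normalised counts. The groups were Neuro2A Prox1-Tet-On, a stable mouse neuroblastoma line with an inducible transgene for the homeodomain transcription factor Prox1 (2 libraries), and Neuro2A GFP-Tet-On, the matching line with inducible GFP (2 libraries). All 4 libraries came from cells given doxycycline at 1 µg/mL to switch the transgene on, and from lines kept under G418 and hygromycin selection. Because the Prox1 and GFP transgenes were carried by different stable lines, an effect of the transgene and of the line cannot be told apart. Nothing states that the 2 replicates of a line were separate cultures, and p-values then cover only a spread among libraries that may be technical.

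Cyclin-dependent kinases drive the cell cycle when bound to a cyclin. D-type cyclins act with Cdk4 and Cdk6 early in G1, E-type cyclins with Cdk2 at the entry into S phase, and both lead to phosphorylation of the retinoblastoma protein, which releases E2F transcription factors. Cdc25 phosphatases remove the inhibitory phosphates that Wee1-type kinases place on Cdk1 and Cdk2, while p21 and p27 bind and block the cyclin-kinase complexes. p21 is a textbook target of p53, and p27 is regulated to a large extent through protein turnover, which RNA counts do not show. Earlier work on these same 2 lines, cited in the labels, names p27 and Cdc25A in its title, and the comparison here is of the messenger RNAs of this machinery with Prox1 or GFP induced.

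Promoter sequences of 3 of the genes are shown because they hold words of E2F, CCAAT and p53 type, and E2F and p53 genes were measured in the same libraries. They run from 250 bases before to 50 bases after the annotated start, 5′ to 3′ on the strand of the gene, and come from RefSeq on GRCm38.p6; capitals mark words found by a search of both strands. The capitals mark the E2F-type word TTTGGCGC and the reverse of the CCAAT box in Cdc25a (chr9:109875329-109875628, plus strand), the CCAAT box or its reverse in Cdkn1b (chr6:134920151-134920450, plus strand), and a pair of CATG words with any 6 bases between them, as in a p53-type element, in the upstream Cdkn1a window (chr17:29090729-29091028, plus strand).
Cdc25a: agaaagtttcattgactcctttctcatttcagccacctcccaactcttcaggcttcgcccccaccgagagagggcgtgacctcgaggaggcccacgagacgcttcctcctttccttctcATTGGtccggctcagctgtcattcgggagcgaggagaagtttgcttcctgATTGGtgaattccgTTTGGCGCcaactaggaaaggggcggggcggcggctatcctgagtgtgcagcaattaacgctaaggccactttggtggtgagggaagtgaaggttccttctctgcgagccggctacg
Cdkn1b: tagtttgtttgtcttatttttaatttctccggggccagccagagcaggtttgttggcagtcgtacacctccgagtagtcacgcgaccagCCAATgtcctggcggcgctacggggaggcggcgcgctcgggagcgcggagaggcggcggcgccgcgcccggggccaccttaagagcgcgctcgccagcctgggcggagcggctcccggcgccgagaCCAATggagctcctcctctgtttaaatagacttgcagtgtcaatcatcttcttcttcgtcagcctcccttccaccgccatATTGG
Cdkn1a: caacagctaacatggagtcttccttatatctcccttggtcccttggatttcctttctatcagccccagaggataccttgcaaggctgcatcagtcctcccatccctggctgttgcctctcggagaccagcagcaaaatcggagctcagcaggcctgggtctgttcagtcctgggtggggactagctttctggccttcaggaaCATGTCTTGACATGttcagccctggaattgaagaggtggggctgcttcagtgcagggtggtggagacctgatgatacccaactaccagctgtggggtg

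Of the 10 genes 6 had windows in the RefSeq table that were searched, 8 windows in all; Ccnd1, Ccnd2 and Ccne2 had no entry, and Cdc25c was not searched. The E2F-type search used the words TTTCCCGC, TTTCGCGC, TTTGCCGC and TTTGGCGC, and among these 6 genes it matched in Cdc25a alone, from 67 to 60 bases upstream of the start (chromosome 9, positions 109875512 to 109875519). One of these words was present in 2.28% of 32544 promoter windows of 300 bases. CCAAT boxes were far more common, in 37.4% of windows; Cdc25a had 2, at 131 to 127 and 81 to 77 bases upstream, and Cdkn1b had 3. Cdc25b had 1, at 28 to 24 bases upstream, and the 2nd window of Ccnd3 had 1, at 108 to 104 bases upstream. The p53-type pair, present in 0.624% of windows, matched the upstream Cdkn1a window from 48 to 35 bases before its start (chromosome 17, positions 29090931 to 29090944). The 2nd Cdkn1a window (chr17:29093519-29093818, plus strand, not shown) was searched as well and held no such pair. The GC box GGGCGG was in 35.9% of windows and in at least 1 window of each of the 6 genes. In Cdkn1a it was in the 2nd window only. The E-box CACGTG, in 7.17% of windows, was in none of the 8. These matches describe letters in the windows and do not show binding.

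The libraries summed to between 6798014 and 7683100 normalised counts, with 18396 to 19811 genes above 0. Prox1 itself, without telling transgene from endogenous RNA, had 1304 and 2505 normalised counts under the Prox1 label, against 2 and 3 under the GFP label. Of 11 tested markers of sympathetic neuroblastoma 8 fell and 1 rose, where 8.41% of all tested genes fell and 7.57% rose. The list's summed level was 6309 to 6950 in Prox1 libraries and 12157 to 12684 in GFP libraries. Chgb made up a large part of this gap, at 1390 and 1415 against 4795 and 4498. Dbh and Phox2a did not pass, and Phox2a was at 1732 and 1359 against 1259 and 1791. Marker lists of fibroblasts, macrophages, endothelium and hepatocytes summed to at most 82 in Prox1 and 48 in GFP libraries. The macrophage gene Ptprc, the fibroblast gene Lum and the endothelial gene Cdh5 were at 0 throughout, but other members were not. Endothelial Vwf was at 28 and 26 in Prox1 and 29 and 31 in GFP libraries. Fibroblast Pdgfra, which also belongs to the hotspot panel described below, was at 36 and 3 against 2 and 10. Hepatocyte Serpina1a was at 21 and 19 against 7 and 9. Hepatocyte Alb was at 62 in Prox1 replicate 2 and at 0 in every other library. Of 8 markers of cycling cells 1 rose, Aurka, and 0 fell, with summed levels of 5628 and 6083 in Prox1 and 6307 and 5212 in GFP libraries. A set of 50 genes of a human cancer hotspot panel stood apart in the GFP libraries, where it took 0.862% to 1.25% of counts, against 0.424% to 0.431% in Prox1 libraries; none of the 10 genes belongs to it. With the panel genes left out of the fit, Cdc25a kept its call (limma adjusted p 0.00539). That fit did not normalise the counts anew. The part of these differences in the results below was otherwise not tested.

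Among the 10 genes, Cdc25a was lower in Prox1 cells and the other 9 did not pass the test in either direction. Cdc25a is the phosphatase that acts on Cdk2 complexes at the entry into S phase as well as later. It was the 1 gene of 10 called by limma at an adjusted p under 0.05, where 16% of all tested genes were called (8.41% as lower and 7.57% as higher). The count among the 10 is thus near the background. Their median log2 difference, Prox1 minus GFP, was -0.15, beside -0.0017 over all tested genes, and 8 of the 10 estimates were below 0. The 2 groups' libraries did not overlap in 4 of the 10 genes, against 58.8% of tested genes. Cdc25a, Ccne1 and Ccne2 were the 3 lower in Prox1 (background 29.9%), and Cdc25c was the 1 higher (background 28.9%). By the DESeq adjusted p in the authors' deposited table, 0 of the 10 genes passed 0.05, against 4.62% of the genes with such a value; 1 of the 10, Cdc25a, had an unadjusted DESeq p under 0.05, against 15.6% of those genes. With 2 libraries against 2, an exact permutation test of a single gene cannot give a two-sided p below 0.333.

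**Figure D1:**
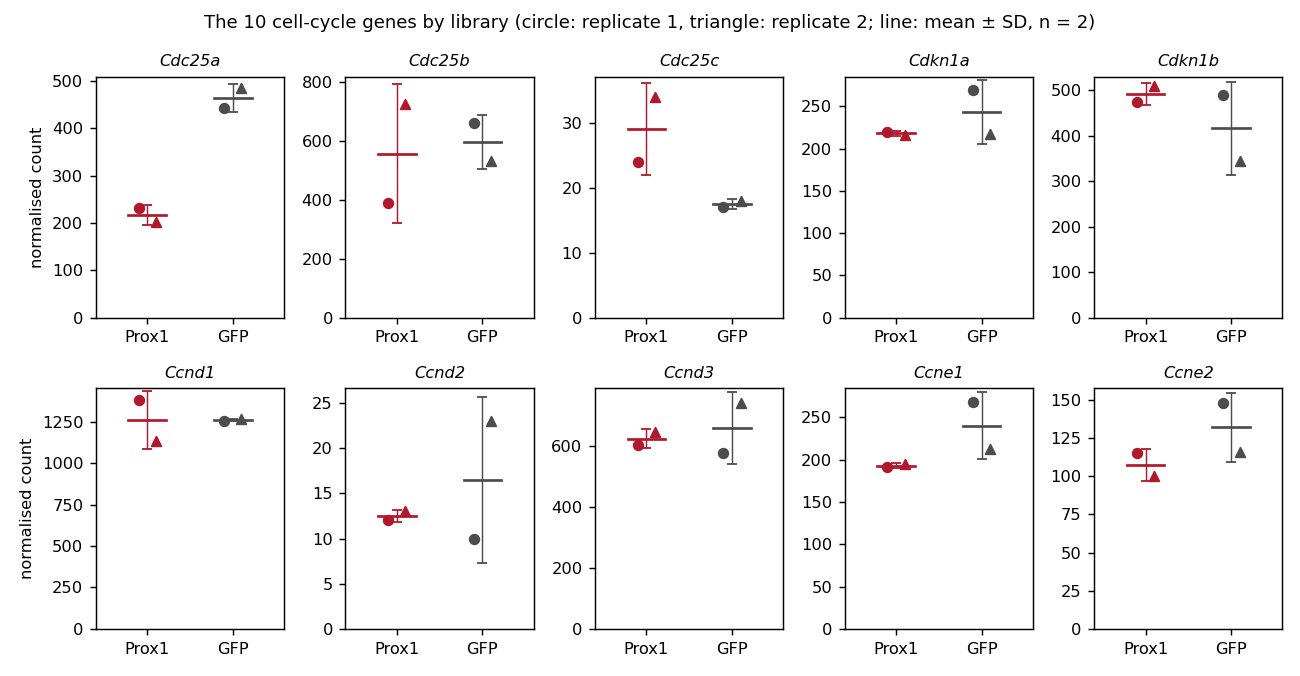
Normalised counts (vertical axis, linear from 0) of the 10 genes in the Prox1 (red) and GFP (grey) libraries; symbols are replicates, lines with bars are mean ± SD of 2 libraries. Only for Cdc25a are both Prox1 libraries (232 and 202) well under both GFP libraries (443 and 485); most other genes overlap or nearly touch.

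Cdc25a (ENSMUSG00000032477, mm10 chromosome 9, positions 109875579 to 109893895, plus strand) had 232 and 202 normalised counts in Prox1 cells, against 443 and 485 in GFP cells. Both Prox1 libraries were low and both GFP libraries high, with no overlap, and within each group the replicates lay within 1.15-fold of each other. Prox1 cells averaged 217.0 ± 21.2 and GFP cells 464.0 ± 29.7 (SD, n = 2 each), a ratio of 0.468. Expressed as log2(normalised count + 1), Cdc25a fell by 1.09 with an SE of 0.22, a 95% interval from -1.57 to -0.62 and a limma adjusted p of 0.00602, which ranked the gene 610th of 13290 by p. The difference stayed between -1.19 and -0.995 with any 1 library left out, but with each library left out in turn limma called 0 genes of the whole table, Cdc25a included (adjusted p 0.154 to 0.238). The authors' deposited table puts Cdc25a on the other side of the same threshold, with a log2 fold change of -1.09 and a DESeq adjusted p of 0.0884. In these bulk libraries fewer cells with the RNA and less RNA per cell cannot be told apart. The microRNA gene Mir7089, which lies within Cdc25a, was at 0 in all 4 libraries.

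The other Cdc25 phosphatases act mainly on Cdk1 at the entry into mitosis. Cdc25b (chromosome 2, positions 131186949 to 131198497, plus strand) had 390 and 724 in Prox1 cells, against 661 and 532 in GFP cells. The Prox1 libraries lay on either side of both GFP libraries and differed 1.86-fold, a wider gap than in the other 9 genes' Prox1 libraries. The log2 difference was -0.16 ± 0.28 (SE), with an interval from -0.76 to 0.44 and a limma adjusted p of 0.737; it was 0.29 without Prox1 replicate 1 and -0.60 without Prox1 replicate 2. Replicate 2 was also the Prox1 library with more Prox1 RNA (2505 against 1304); whether the 2 go together was not tested.

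Cdc25c (chromosome 18, positions 34732997 to 34751533, minus strand) was rare, with 24 and 34 normalised counts in Prox1 libraries and 17 and 18 in GFP libraries. The groups did not overlap, but the Prox1 libraries lay farther from each other than the lower of them lay from the higher GFP library. The ratio of sums was 1.66, with an exact 95% counting interval of 1.07 to 2.60 that treats normalised counts as reads and leaves out variation between replicates. With that variation the log2 difference of 0.68 ± 0.46 (SE) had an interval from -0.31 to 1.66 and a limma adjusted p of 0.335. The protein-coding gene Gm3550 lies inside Cdc25c on the other strand at 22 and 43 against 30 and 40, and whether counting used strand is not given in the sources used here, so reads of the 2 cannot be told apart with certainty.

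The 2 inhibitors did not pass in either direction. Cdkn1b (p27; ENSMUSG00000003031, chromosome 6, positions 134920401 to 134925513, plus strand) was at 474 and 508 in Prox1 libraries, against 488 and 343 in GFP libraries. The 1st GFP library lay between the 2 Prox1 libraries and only the 2nd was lower. Prox1 cells averaged 491.0 ± 24.04 and GFP cells 415.5 ± 102.5 (SD, n = 2 each). The log2 difference was 0.26 ± 0.23 (SE), with an interval from -0.24 to 0.76 and a limma adjusted p of 0.477. It rested on GFP replicate 2: without it the difference was 0.008, and without GFP replicate 1 it was 0.52 (limma adjusted p 0.982 and 0.241). As a ratio the interval reached from 0.846 to 1.70.

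Cdkn1a (p21; chromosome 17, positions 29090979 to 29100722, plus strand) was at 220 and 216 in Prox1 libraries and at 270 and 217 in GFP libraries. The Prox1 libraries were nearly equal and the 2nd GFP library lay between them. The log2 difference was -0.15 ± 0.24 (SE), with an interval from -0.66 to 0.36 and a limma adjusted p of 0.703. No other gene of the authors' table overlapped Cdkn1a, Cdkn1b or Ccne1.

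The D-type cyclins link growth signals to Cdk4 and Cdk6. Ccnd1 (chromosome 7, positions 144929931 to 144939925, minus strand) had 1381 and 1134 in Prox1 libraries, against 1253 and 1263 in GFP libraries. Both GFP values lay between the Prox1 values, and Prox1 cells averaged 1257.5 ± 174.7, GFP cells 1258.0 ± 7.1 (SD, n = 2 each). The log2 difference was -0.0075 ± 0.21 (SE), with an interval from -0.46 to 0.45, which as a ratio is 0.726 to 1.36 (limma adjusted p 0.985).

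Ccnd3 (chromosome 17, positions 47505051 to 47599691, plus strand) was at 601 and 644 in Prox1 libraries and at 575 and 741 in GFP libraries. Here both Prox1 values lay between the GFP values. The log2 difference was -0.07 ± 0.22 (SE; interval -0.54 to 0.40; limma adjusted p 0.856). Ccnd2 (chromosome 6, positions 127125162 to 127152193, minus strand) was near the minimum for testing, at 12 and 13 in Prox1 libraries and 10 and 23 in GFP libraries. The GFP libraries spanned both Prox1 values and differed 2.30-fold, and the log2 difference of -0.27 ± 0.58 (SE) had the widest interval of the 10, from -1.52 to 0.99. The 2 antisense genes that overlap Ccnd2 were at 0 in all 4 libraries.

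The E-type cyclins were both somewhat lower in Prox1 libraries without passing the test. Ccne1 (chromosome 7, positions 38097984 to 38107534, minus strand) was at 191 and 195 in Prox1 libraries and at 268 and 212 in GFP libraries. The Prox1 values were close together and under both GFP values, yet the gap to the 2nd GFP library was smaller than that between the GFP libraries. The log2 difference was -0.30 ± 0.24 (SE), with an interval from -0.82 to 0.21 and a limma adjusted p of 0.419. Ccne2 (chromosome 4, positions 11191351 to 11204779, plus strand) was at 115 and 100 in Prox1 libraries, against 148 and 116 in GFP libraries, and the groups were 1 normalised count from overlapping. Its log2 difference was -0.29 ± 0.27 (SE), with an interval from -0.88 to 0.30 and a limma adjusted p of 0.511. Without GFP replicate 1 the log2 differences were -0.13 for Ccne1 and -0.11 for Ccne2, and without GFP replicate 2 they were -0.47 and -0.46. Neighbours on the other strand overlap the ends of Ccne2 (Ints8), Ccnd1 (Oraov1), Ccnd3 (Bysl) and Cdc25b (Spef1). Ints8 was at 280 and 318 in Prox1 libraries and 189 and 205 in GFP libraries, and Oraov1 at 228 and 204 against 116 and 166. Bysl was at 159 and 216 against 176 and 175, and Spef1 at 69 and 68 against 39 and 57. Ints8, Oraov1 and Bysl overlap the 3′ ends, which the 3′ kit reads. Whether counting used strand is not given, so reads of each pair cannot be told apart with certainty.

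**Figure D2:**
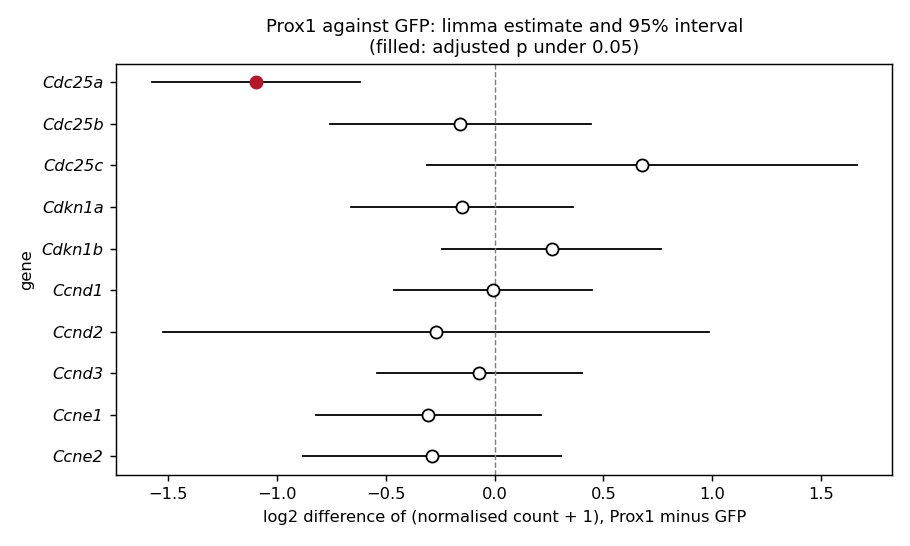
Difference of log2(normalised count + 1), Prox1 minus GFP (horizontal axis), for each of the 10 genes, with the 95% interval of the limma fit; the filled point has an adjusted p under 0.05. The interval of Cdc25a, from -1.57 to -0.62, lies below 0, and those of the other 9 genes include 0.

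The sizes of change called among genes of like level are set beside those of the 10 genes, of which Cdc25c and Ccnd2 lay below this band and Ccnd1 above it. Over the 6473 tested genes with a mean of 100 to 1000 normalised counts, the median SE was 0.25 on the log2 scale, and the smallest log2 difference called was 0.65. In that band 508 genes differed by at least as much as Cdc25a, and 498 of them were called. The 9 other genes had log2 differences from -0.30 to 0.68 and limma adjusted p-values from 0.335 to 0.985; in the authors' deposited table their DESeq adjusted p-values ran from 0.771 to 1. Apart from Cdc25a, only Cdc25c had a difference between groups larger than the gap between replicates in both lines (0.68 against 0.49 in Prox1 and 0.08 in GFP).

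**Figure D3:**
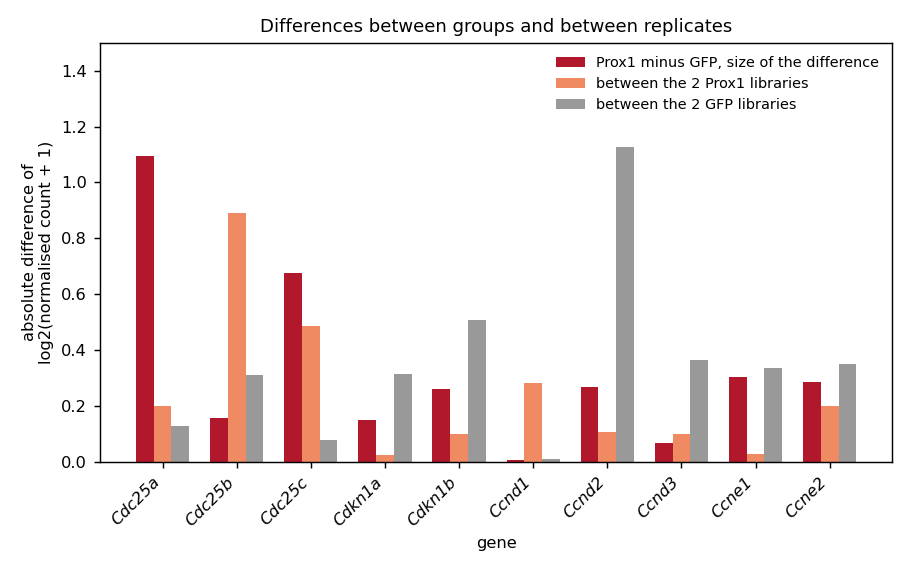
Absolute differences of log2(normalised count + 1) (vertical axis) for the 10 genes: between the group means (red), between the 2 Prox1 libraries (orange) and between the 2 GFP libraries (grey). For Cdc25a the difference between groups, 1.09, exceeds the replicate gaps of 0.20 and 0.13, while for Cdc25b the Prox1 replicates (0.89) and for Ccnd2 the GFP replicates (1.13) differ by more than the groups.

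The surrounding machinery was described through 9 lists of textbook regulators, 100 genes in all, of which 88 were tested. Of these 8 rose and 8 fell, or 18.2%, near the 16% of all tested genes, and their median log2 difference was 0.01. Rb1, Trp53, Atm, Cdkn2a, Ctnnb1 and Fbxw7 among them belong to the hotspot panel. With the panel genes left out 82 were tested, and again 8 rose and 8 fell.

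Among the kinases, the cyclin partners of the 10 genes did not pass. Cdk1, which drives mitosis, was at 1501 and 1383 in Prox1 and 1556 and 1329 in GFP libraries. Cdk2, the partner of E-type cyclins, was at 970 and 590 against 658 and 956, and Cdk4, the partner of D-type cyclins, at 597 and 945 in Prox1 against 962 and 1137 in GFP libraries (limma adjusted p 0.887 and 0.202). Cdk6 was at 0 and 2 in Prox1 libraries and at 0 in both GFP libraries. Cyclin H (Ccnh), the regulatory subunit of the kinase that activates cyclin-dependent kinases (CAK), rose, at 1183 and 973 in Prox1 libraries against 576 and 590 in GFP libraries, which is 1.85-fold (limma adjusted p 0.014). It was the 1 of 6 tested kinase and CAK genes that passed. Of 4 tested S, G2 and M cyclins 0 passed in limma, and 0 had an unadjusted p under 0.05; Ccna2 was at 658 and 618 in Prox1 and 708 and 650 in GFP libraries, and Ccnb1 at 508 and 487 against 527 and 351.

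Kinases that oppose Cdc25 or signal to it moved in both directions, with 2 falling and 1 rising of 9 tested. Wee1, which places the inhibitory phosphate that Cdc25 removes, fell to 58 and 86 in Prox1 libraries, against 191 and 146 in GFP libraries, a ratio of 0.427 (limma adjusted p 0.0153). Mapkapk2, a stress kinase that can phosphorylate Cdc25 proteins, fell to 126 and 155, against 392 and 396 in GFP libraries (ratio 0.357; limma adjusted p 0.00153). It also passed in the authors' deposited table, at a DESeq adjusted p of 0.0113. The mitotic kinase Aurka, which acts on Cdc25b, rose to 706 and 687 in Prox1 libraries, against 386 and 464 in GFP libraries (1.64-fold; limma adjusted p 0.0369). The messenger RNAs of Cdc25a and of Wee1, which act in opposite ways on the same phosphates, were both lower in Prox1 cells.

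Of the 14-3-3 proteins, which bind phosphorylated Cdc25, 1 of 7 tested passed: Sfn rose to 70 and 122 in Prox1 libraries, against 37 and 25 in GFP libraries (3.10-fold; limma adjusted p 0.0149). Of 15 ubiquitin ligase parts 1 rose, Fzr1, an activator of the ligase that degrades Cdc25a and mitotic cyclins, at 564 and 760 in Prox1 against 399 and 389 in GFP libraries (1.68-fold; limma adjusted p 0.0422). Skp2, the ligase subunit that recognises p27, was at 42 and 45 in Prox1 libraries and 105 and 72 in GFP libraries, a ratio of 0.492 that did not pass (limma adjusted p 0.0616). Of 3 tested kinase inhibitors outside the 10 genes 0 passed in limma and 0 had an unadjusted p under 0.05, with a median log2 difference of -0.25; Cdkn1c (p57), the 3rd member of the p21 family, had counts of 0 and 0 in Prox1 libraries, against 4 and 0 in GFP libraries, and was not tested.

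In the retinoblastoma and E2F families 2 of 13 tested genes fell and 0 rose. E2f1, an activator of S phase genes, was at 1022 and 1015 in Prox1 libraries against 1821 and 1710 in GFP libraries, a ratio of 0.577 (limma adjusted p 0.0199). Its partner Tfdp1 was at 283 and 265 against 498 and 501 in GFP libraries, a ratio of 0.549 (limma adjusted p 0.0164). In both genes replicates differed by at most 1.07-fold and the groups did not overlap, as in 58.8% of all tested genes. Rb1 itself belongs to the hotspot panel and was at 124 and 130 in Prox1 libraries, against 7934 and 137 in GFP libraries; with GFP replicate 1 left out its log2 difference was -0.11. Its difference rested on that 1 library (limma adjusted p 0.0951 with it).

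Among transcription regulators known to act on the 10 genes, 3 of 14 tested fell and 1 rose. Myc, a known activator of Cdc25a and Ccnd2, was at 78 and 59 in Prox1 libraries against 178 and 162 in GFP libraries, a ratio of 0.403 (limma adjusted p 0.00824). Mycn, the neuroblastoma oncogene, was at 372 and 238 against 739 and 632 in GFP libraries, a ratio of 0.445 (limma adjusted p 0.00681). Jun, chosen after its values were seen, was the 3rd that fell, at 857 and 705 in Prox1 against 1305 and 1679 in GFP libraries, a ratio of 0.523 (limma adjusted p 0.0139). Klf4, an activator of p21, rose to 34 and 35 in Prox1 libraries, against 0 and 10 in GFP libraries (limma adjusted p 0.0235).

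Of p53 and its targets other than p21, 3 of 17 tested rose and 1 fell, with a median log2 difference of 0.18. Mdm2, which targets p53 for degradation, was at 3399 and 3251 in Prox1 libraries and 2055 and 2077 in GFP libraries, 1.61-fold higher (limma adjusted p 0.0447). Sesn1, a stress-response gene, was at 68 and 72 against 23 and 18 in GFP libraries, 3.41-fold higher (limma adjusted p 0.00865), and Trp53inp1 at 28 and 39 against 0 and 6 (limma adjusted p 0.0121). Zmat3 fell, at 183 and 218 in Prox1 against 315 and 359 in GFP libraries (ratio 0.595; limma adjusted p 0.0442). p21, the best known target of p53, did not pass, as given above.

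**Figure D4:**
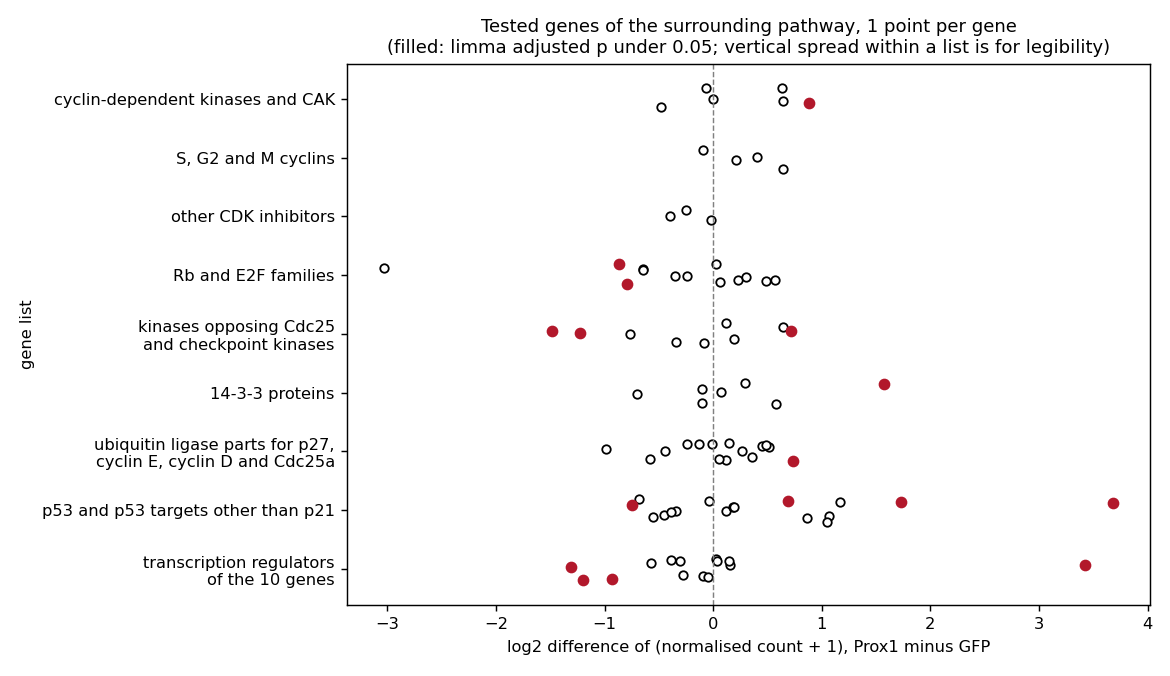
Difference of log2(normalised count + 1), Prox1 minus GFP (horizontal axis), of the tested genes in 9 lists of cell-cycle regulators, 1 point per gene, filled at a limma adjusted p under 0.05. Filled points lie on both sides of 0; the open point near -3.03 is the panel gene Rb1.

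**Figure D5:**
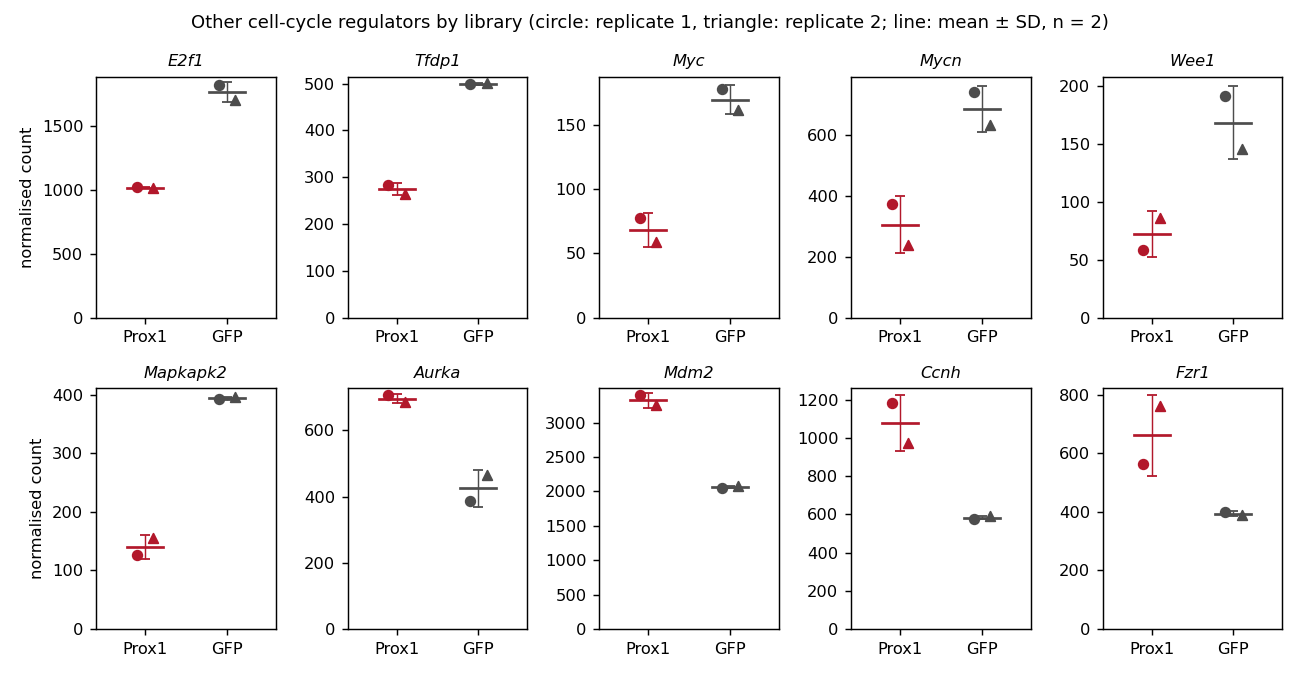
Normalised counts (vertical axis, linear from 0) of 10 called regulators in the Prox1 (red) and GFP (grey) libraries; symbols are replicates, lines with bars are mean ± SD of 2 libraries. E2f1, Tfdp1, Myc, Mycn, Wee1 and Mapkapk2 are lower in both Prox1 libraries, and Aurka, Mdm2, Ccnh and Fzr1 are higher.

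The genes whose pattern over the 4 libraries was most like that of Cdc25a, out of 6999 candidates with a mean of at least 100, were Zrsr2, Dchs1 and Gcat. Panel genes and genes with clone-type symbols, such as Gm or Rik, were not candidates. Likeness was the Euclidean distance between log2 values centred on each gene's mean, 0.027, 0.032 and 0.045 for the 3. With replicates close together it largely follows the size of the group difference, here -1.10, -1.09 and -1.07 on the log2 scale. Shared regulation was not tested. Zrsr2 stood at 629 and 560 in Prox1 libraries and 1226 and 1323 in GFP libraries. Among the regulators named above, Tfdp1 (0.257), Myc (0.319) and E2f1 (0.366) were farther away. In the authors' deposited table Wee1, E2f1, Tfdp1, Myc, Mycn, Mdm2, Ccnh, Aurka, Sfn, Fzr1, Sesn1, Zmat3, Klf4 and Jun did not pass (DESeq adjusted p 0.0712 to 0.480), while Mapkapk2 and Trp53inp1 did. The panel gene Rb1 also passed there (DESeq adjusted p 1e-17), with a difference that rested on GFP replicate 1 as given above.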

How the data were processed

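RNA of 2 Prox1 and 2 GFP Neuro2A libraries was read with a QuantSeq 3′ kit on an Ion Proton, per the labels' protocols; groups and replicate numbers come from the titles. Per the file headers, the deposited columns are log2 normalised counts; returned to a linear scale minus 1, 100% of them were whole within a relative deviation of 3.47e-09. Beside them stand the authors' own fold change, p-value and adjusted p from DESeq. The authors worked with DESeq on mm10, per the submitters' processing notes, while aligner, counter, strand use and annotation are "not given" there or in the labels. Raw depth is unknown. Coordinates are the table's, on mm10.

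log2(normalised count + 1) was fitted with limma 3.58.1 (R 4.3.3; trend, no block), two-sided, Benjamini-Hochberg adjusted over the 13290 genes whose mean reached 10; called means an adjusted p under 0.05. The added 1 pulls the log2 difference of low genes towards 0; ratios in the text are ratios of mean normalised counts, which can be smaller or larger than the fold on the log2 scale. The fit was tested on simulated data. With normalised counts treated as reads, replicates differed by more than counting noise (chi-square per degree of freedom 21.1 in Prox1 and 22.0 in GFP). As raw depth is unknown, the actual counting noise is not known. The 10 genes and the lists were chosen with earlier results of these data known. Genes named are Prox1, the 10, fixed regulators, up to 2 rises and 2 falls per list and the 3 most like Cdc25a; Jun, Cdk7, Mnat1, Plk1 and genes that overlap the 10 or mark other cells were named outside this rule, and Jun, Cdk7, Mnat1 and Plk1 were not followed through the alternatives one by one. Alternatives were scaling, minimum, pseudocount, variance model, replicate block, each library left out and, added after seeing the data, no panel genes.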

Additional observations from a re-analysis of the deposited data

How the results depend on the processing

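The fall of Cdc25a kept its direction under every alternative run, from -1.19 to -0.995 with a library left out (adjusted p 0.154 to 0.238), and its call under 10 of 15. Without the minimum count it was -1.09 (limma adjusted p 0.126). In that fit 0 of all genes, of the 10 and of the 99 regulators then tested were called (5032 genes with an unadjusted p under 0.05). With any 1 library left out these 3 counts were again 0 to 0 (2392 to 3021 genes with an unadjusted p under 0.05). Without the variance trend 1057 genes and 3 regulators were called, and Cdc25a kept its call (adjusted p 0.0495). Ccnd1 turned to 0.0028 with median centring and to 0.040 with cyclic loess. With a library left out the signs of uncalled genes turned: Cdc25b ran from -0.60 to 0.29, Cdkn1a from -0.31 to 0.0065, Ccnd1 from -0.15 to 0.13, Ccnd2 from -0.83 to 0.29, Ccnd3 from -0.25 to 0.11, Cdk1 from -0.11 to 0.12, Cdk2 from -0.43 to 0.29 and Ccnb1 from -0.083 to 0.50. The cause was not tested. Nothing states whether same-numbered libraries pair. The correlation of their deviations was -0.051, which cannot show that they were unpaired. With the replicate block limma called 2528 genes, Cdc25a among them (-1.09, adjusted p 0.000523), while Mdm2 did not pass (0.0633) and Rb1 did. There the SE of Rb1 was 0.258, against 1.17 without the block, although its GFP libraries were at 7934 and 137. The small p-values of that fit thus hardly reflect a gene's own replicate spread. Apart from libraries left out, 350 of 390 values of the 36 genes named by the fixed rule and tested kept direction and side of the threshold.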

Other observations

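The other subunits of the CDK-activating kinase lay on the same side as Ccnh without passing the test; they were chosen after their values were seen. Cdk7, the catalytic subunit, was at 317 and 262 normalised counts in Prox1 libraries and 201 and 171 in GFP libraries, and the assembly factor Mnat1 at 480 and 436 against 292 and 292 in GFP libraries. The ratios of means were 1.56 and 1.57, with limma adjusted p-values of 0.087 and 0.0577. The groups did not overlap in either gene, as in 58.8% of all tested genes. The mitotic kinase Plk1, chosen in the same way, was at 948 and 1105 in Prox1 and 704 and 606 in GFP libraries, with a limma adjusted p of 0.0543.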
